A study of Mus musculus with 148 samples.

Results

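Mon Thbs1 monocytes are one of 27 immune subpopulations that were annotated in a study of the lung around breast cancer metastases in mice. Cells were sorted 1 to a well, and their RNA was counted as unique molecular identifiers (UMIs, tags that mark individual captured transcripts). Every well that the authors' deposited cell table names Mon_Thbs1 was taken, which gave 1109 cells of 23425 immune cells (4.73%) and of 6308 monocytes (17.6%). The other monocyte subsets used here for comparison are Mon_Fn1 (3053 cells), Mon_Ace (1375 cells) and Mon_MHC-II (771 cells), and the macrophage subset is Mac_Isg20 (494 cells). The authors assigned cells to subpopulations from their expression, so the levels that set Mon Thbs1 apart from other subsets are given as a description without a test.

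All mice described here were female PA-GFP C57BL/6 animals, whose cells carry a photoactivatable green fluorescent protein. In tumor-bearing mice, EO771-tdTomato cells, a mouse breast carcinoma line that expresses a red fluorescent protein, had been injected into the mammary gland at 8 weeks of age, and in the mice that gave metastases, distal or relapse-free lung the primary tumor was resected 3 weeks later. The samples fell into 8 tissue statuses. Lung sections that held a metastasis (MET) came from 13 mice, metastatic cores (MET Core) from 13, the invasive margin of a metastasis (MET Invasive margin) from 7 and lung away from the lesion in the same mice (Distal normal tissue) from 14. Whole lungs came from 6 mice that never relapsed after resection (Relapse-free), from 3 tumor-bearing mice before resection (Pre-MET) and from 3 control mice (Normal), and primary tumors (Primary) came from 4 mice, of which mice 8, 9 and 10 also gave the Pre-MET lungs. Cores and margins were photoactivated and sorted as CD31-negative fluorescent cells, in part with CD45 as a further gate, and the sections and primary tumors were sorted as CD31-negative CD45-positive cells. A single carcinoma line stands for the disease, and each lesion had been seen by microscopy. Lungs were called free of metastasis by microscopy for red signal, for Pre-MET lungs with CT and flow cytometry as well. After resection, mice were also followed by weekly CT.

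For levels of single genes, UMIs of Mon Thbs1 cells were summed over each mouse and tissue, and sums from at least 10 cells were kept. This left 25 of 63 samples with 985 cells: 4 primary tumors (187 cells), 8 cores (387 cells), 10 metastasis sections (376 cells) and 1 sample each of margin (mouse 17, 13 cells), distal normal lung (mouse 36, 12 cells) and relapse-free lung (mouse 35, 10 cells). Normal and Pre-MET lungs held 4 and 9 Mon Thbs1 cells in all and gave no such sample. A sum held 9896 to 468745 UMIs, a cell held a median of 1744 UMIs (501 to 23242), and values are UMIs scaled to a sum of 1000000 (CPM). Cells of primary tumors were deeper, with sample medians of 2788 to 6528 UMIs per cell, against 748.5 to 4559 in cores and 773 to 2934 in metastasis sections. Sequencing batches also differed: the primary tumors were in batches SB128 and SB132, while 5 of the 8 cores were in batch SB118. Of the tumors and cores, only the tumor of mouse 8 and the core of mouse 36 shared a batch, SB128. A fit with the batch as a term therefore sets that tumor against that core. For metastasis sections it sets that tumor against the sections of mice 36 and 37.

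Classical monocytes leave the bone marrow through the chemokine receptor Ccr2 and follow its ligands Ccl2, Ccl7 and Ccl12 into inflamed tissue and tumors, where they can mature into macrophages. Thbs1 encodes thrombospondin-1, a secreted matrix glycoprotein that restrains blood vessel growth. Cxcl10 is an interferon-induced ligand of the T cell receptor Cxcr3, and Cxcl16 is a ligand of Cxcr6 that is made as a membrane-bound protein.

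The cells held the myeloid transcript Lyz2 in every tissue. Lyz2, which encodes the lysozyme of myeloid cells, stood at 13324 to 23793 CPM over all Mon Thbs1 cells of each tissue. The summed 10 markers of T cells reached at most 517 CPM in a sample, those of B cells 258 CPM and those of lung epithelium 101 CPM. Defining markers of neutrophils were present: the 11 markers summed to 192 to 330 CPM in primary tumors, where Camp, Ngp and Ltf were at 0, to 73.8 to 1600 CPM in cores and to 132 to 3138 CPM in metastasis sections.

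Thbs1 (chr2:118111876-118127133, plus strand, mm10) overlapped in level between Mon Thbs1 cells of tumor, metastasis and lung. The subset bears its name and was assigned from expression, so its level in each tissue may in part be set by that choice. In the 4 primary tumors it stood at 441, 1609, 2478 and 3626 CPM (mean 2038 ± 1348, SD, n = 4). The 8 cores had a lowest, median and highest value of 161, 1500 and 2644 CPM (mean 1382 ± 932, SD, n = 8), and the 10 metastasis sections of 202, 1484 and 2924 CPM (mean 1453 ± 871, SD, n = 10). Single samples of relapse-free lung, distal normal lung and margin held 1631, 1171 and 2673 CPM. The tissues overlapped, and the SD within primary tumors, cores and sections exceeded the distance between their means.

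Ccl2 (chr11:82035571-82037453, plus strand), the main chemoattractant for Ccr2-bearing monocytes, differed far more between tissues than Thbs1. It stood at 146, 188, 257 and 809.6 CPM in primary tumors, at 870.1, 1959 and 2957 CPM (lowest, median, highest) in cores and at 23.7, 942 and 1832 CPM in metastasis sections. The relapse-free sample held no Ccl2 UMI and the distal normal sample 10.7 CPM. Every core lay above every primary tumor, and the metastasis sections spanned both. Over all 36 relapse-free Mon Thbs1 cells there was no Ccl2 UMI among 139748, which allows up to 21.5 CPM. All 50 distal normal cells together held 164 CPM (95% exact Poisson interval 110 to 236, counting error only), so the other distal mice, each below the minimum of 10 cells, held most of these Ccl2 UMIs.

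Cxcl10 (chr5:92346638-92348889, minus strand) ranged from 52.4 to 2101 CPM in primary tumors, from 443 to 3800 CPM in cores and from 426 to 2650 CPM in metastasis sections. The distal normal sample held 827 CPM and the relapse-free sample none, and the tissues of the tumor and the metastasis overlapped. Cxcl16 (chr11:70453983-70459984, minus strand) was the lowest of the 4 marker genes, with means of 128 ± 74.5 CPM in primary tumors (SD, n = 4), 234 ± 198 CPM in cores (SD, n = 8) and 282 ± 253 CPM in metastasis sections (SD, n = 10). The relapse-free sample held no Cxcl16 UMI, and the distal normal sample held 43.0 CPM.

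**Figure D1:**
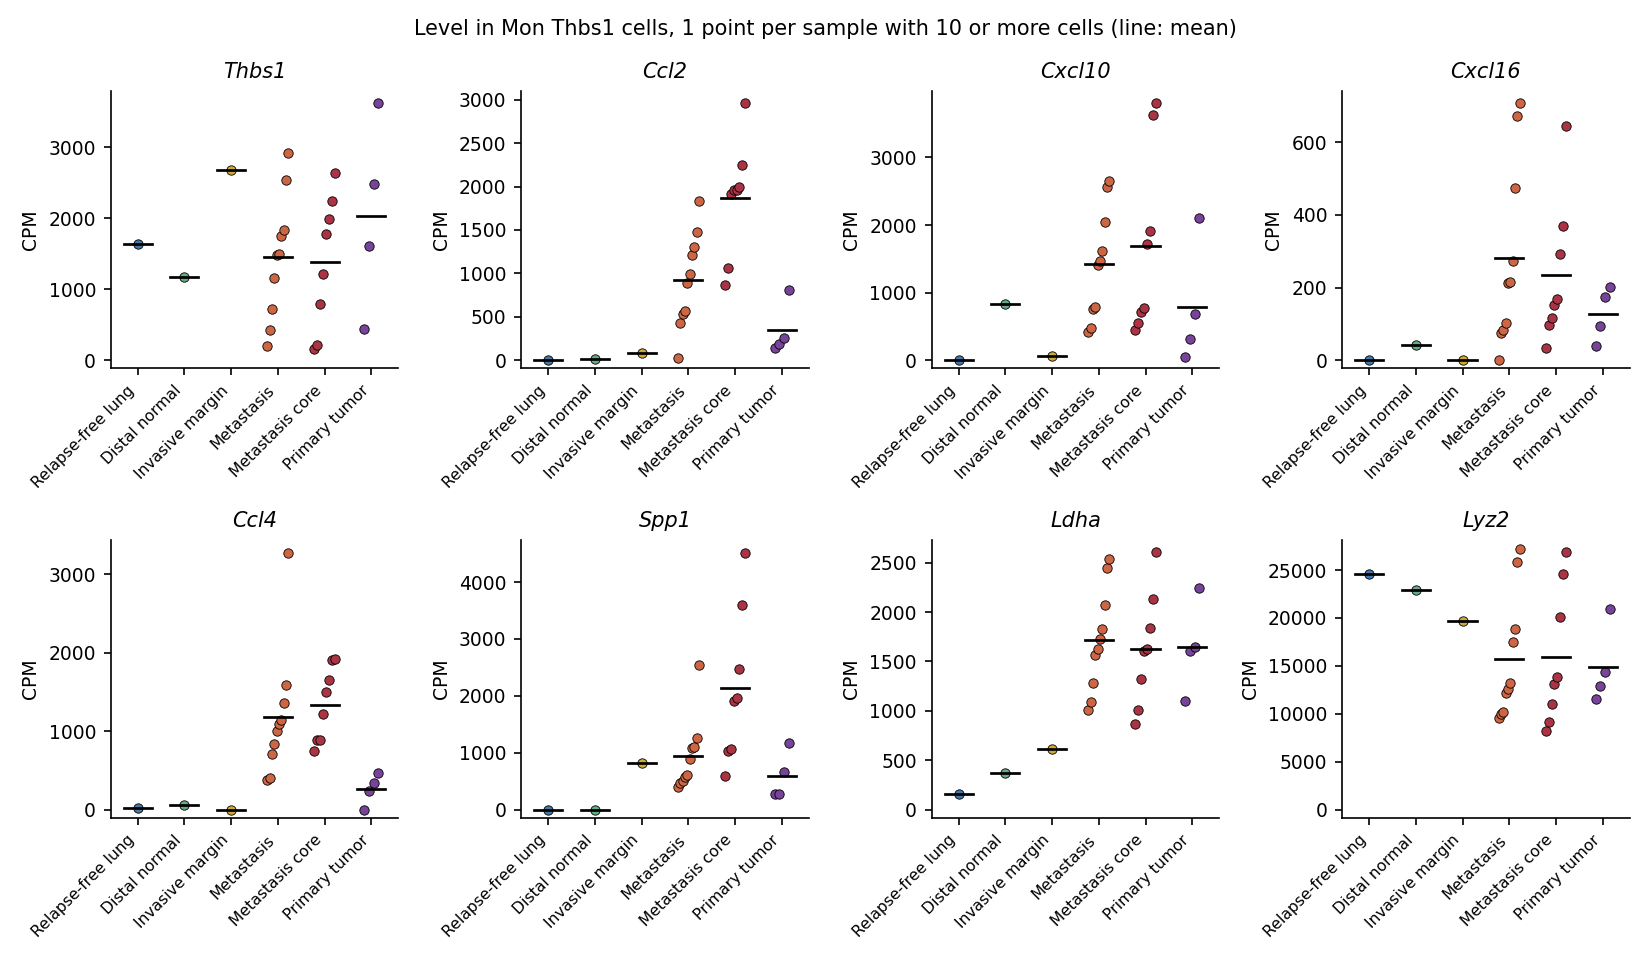
Levels (CPM, linear axes) of 8 genes in Mon Thbs1 cells, with 1 point per mouse and tissue and a line at each tissue's mean. Thbs1 and Lyz2 overlapped between tissues, whereas every core lay above every primary tumor for Ccl2, and the relapse-free and distal normal samples held no Spp1 UMI.

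Set against the other subsets of the same samples, Mon Thbs1 cells held more of their marker chemokines than Mon Fn1 monocytes. In 22 samples, each with 10 or more cells of both subsets, Cxcl10 averaged 1225 CPM in Mon Thbs1 and 254 CPM in Mon Fn1 cells and was higher in Mon Thbs1 in 19 samples, and Cxcl16 averaged 179 against 29.9 CPM (17 samples). Ccl2 averaged 994 against 346 CPM (16 samples), and Thbs1 1729 against 963 CPM (19 samples). Thbs1 did not set the subsets apart in primary tumors, where it was higher in Mon Thbs1 in 2 of 4 samples. Spp1, which encodes the secreted phosphoprotein osteopontin, averaged 1130 against 128 CPM (20 samples), and H2-Ab1, a class II antigen-presenting chain, 2663 against 133 CPM (21 samples). Of the 16 classical monocyte genes, 14 were lower in Mon Thbs1 cells by their mean log2 ratio over these samples and 2 higher, Thbs1 among them. Of 24 macrophage maturation and lipid-associated genes, 21 were higher in Mon Thbs1 cells by the same measure and 3 lower. Chil3, a chitinase-like protein, averaged 1314 against 2530 CPM and was higher in Mon Thbs1 in 2 of 22 samples, and Ccr2 averaged 586 against 899 CPM and was higher in 4.

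Mac Isg20 macrophages held more of the Ccr2 ligands than Mon Thbs1 cells. Over 15 shared samples, Ccl2 averaged 1405 CPM in Mon Thbs1 and 3668 CPM in Mac Isg20 cells, Ccl7 331 against 4582 CPM and Spp1 1603 against 4034 CPM, with Mon Thbs1 higher in 1, 0 and 1 of the samples. Thbs1 itself was higher in Mon Thbs1 in 14 of 15 samples (1561 against 566 CPM), and Il1b, the inflammatory cytokine interleukin-1β, in all 15 (3227 against 1435 CPM). Against Mon Ace and Mon MHC-II monocytes, Thbs1 was higher in Mon Thbs1 in 13 of 13 and 11 of 11 samples.

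B cells, which should lack these genes, served as a measure of stray RNA, with each cell thinned to 500 UMIs. Thbs1 was then seen in 37.5% of Mon Thbs1 cells from metastasis sections, 42.2% from cores and 34.2% from primary tumors, against 0.667%, 6.06% and 0.51% of B cells. Ccl2 was seen in 17.4%, 38.5% and 5.35% of Mon Thbs1 cells, against 1.33%, 0% and 0.51% of B cells; cores held 33 B cells, so that 0% there is a weak limit. A pair of genes stood near the B cell level. Spp1 in primary tumors was seen in 18.2% of Mon Thbs1 cells and 17.3% of B cells (median depths 4328 and 1649.5 UMIs; 45.5% and 26.0% without thinning), so its share at equal depth was close to that of B cells. S100a8, a neutrophil-rich calprotectin subunit, was seen in 8.85% and 11.8% of Mon Thbs1 cells from metastasis sections and cores, against 12.7% and 39.4% of B cells (median depths 1412.5 and 1523.5 against 956 and 841 UMIs; 26.0% and 20.8% against 26.0% and 39.4% without thinning). The share in cores again rests on 33 B cells, and the part of stray RNA in S100a8 was not tested.

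Mon Thbs1 cells made up more of the monocytes in metastases than elsewhere in the lung. In metastasis sections they were 1.61%, 23.9% and 70.9% of a sample's monocytes (lowest, median, highest; mean 25.5 ± 18.8, SD, n = 13), against 0%, 2.91% and 13.6% in distal normal lung (mean 5.28 ± 4.77, SD, n = 14) and a mean of 5.24% ± 3.80 in relapse-free lung (SD, n = 6). The difference of 20.2 percentage points from distal normal lung gave p = 0.00024 in a two-sided permutation test with 100000 resamples (adjusted p = 0.00096, Benjamini-Hochberg over 4 comparisons of shares). From relapse-free lung the difference was also 20.2 points (exact permutation test, p = 0.00663, adjusted p = 0.00885). Metastasis sections of low share overlapped with both. Whole lungs of Normal and Pre-MET mice held 1.21% and 1.29% on average (n = 3 each), and the primary tumors 26.7%, 37.2%, 38.0% and 49.2%.

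Within the metastasis, cores held the highest shares. In cores Mon Thbs1 cells were 4.76%, 35.7% and 81.3% of monocytes (lowest, median, highest; mean 43.7 ± 23.8, SD, n = 13), and in margins 0%, 6.98% and 33.3% (mean 10.0 ± 11.9, SD, n = 7), a difference of 33.6 points (two-sided exact permutation test, p = 0.00142, adjusted p = 0.00284). Cores exceeded metastasis sections by 18.2 points (permutation test, p = 0.0419, adjusted p = 0.0419). That call was lost as a share of all immune cells, with a difference of 1.58 points (permutation test, adjusted p = 0.703), and with any of 12 of the 26 samples left out, the cores of mice 23, 24, 25, 26 and 28 and the sections of mice 24, 25, 27, 30, 31, 34 and 36 (highest adjusted p = 0.0766). Cores and sections were sorted through different gates, whose part in this difference cannot be told apart from the tissue.

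Pairing samples by mouse, as the replicate block, gave the same directions. The metastasis section exceeded the distal lung in 11 of 13 mice, by a mean of 20.1 points (exact sign-flip permutation test, p = 0.00171, adjusted p = 0.00513), and the core exceeded the section in 10 of 12 mice, by 22.6 points (exact permutation test, p = 0.0176, adjusted p = 0.0264). The core exceeded the margin in 6 of 6 mice, by 33.9 points (exact permutation p = 0.03125, the smallest that 6 pairs allow). Within sequencing batches, the section exceeded the distal lung by 22.6 points in SB118 (5 sections, 7 distal), 29.8 in SB124 (2 and 4) and 22.5 in SB128 (2 and 2). It exceeded relapse-free lung by 14.5 in SB118 and 20.6 in SB128, each with 1 relapse-free sample. The core exceeded the margin by 27.9 points in SB112 (1 core and 1 margin, of the same mouse), 61.0 in SB118 (6 and 2), 3.91 in SB124 (3 and 3) and 12.4 in SB128 (2 and 1). The core exceeded the section by 38.6 points in SB118 (6 cores, 5 sections) and 28.7 in SB123 (1 and 1). It was 22.5 points lower in SB124 (difference -22.5, 3 and 2) and 0.297 points lower in SB128 (difference -0.297, 2 and 2), so this difference did not hold within every batch.

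**Figure D2:**
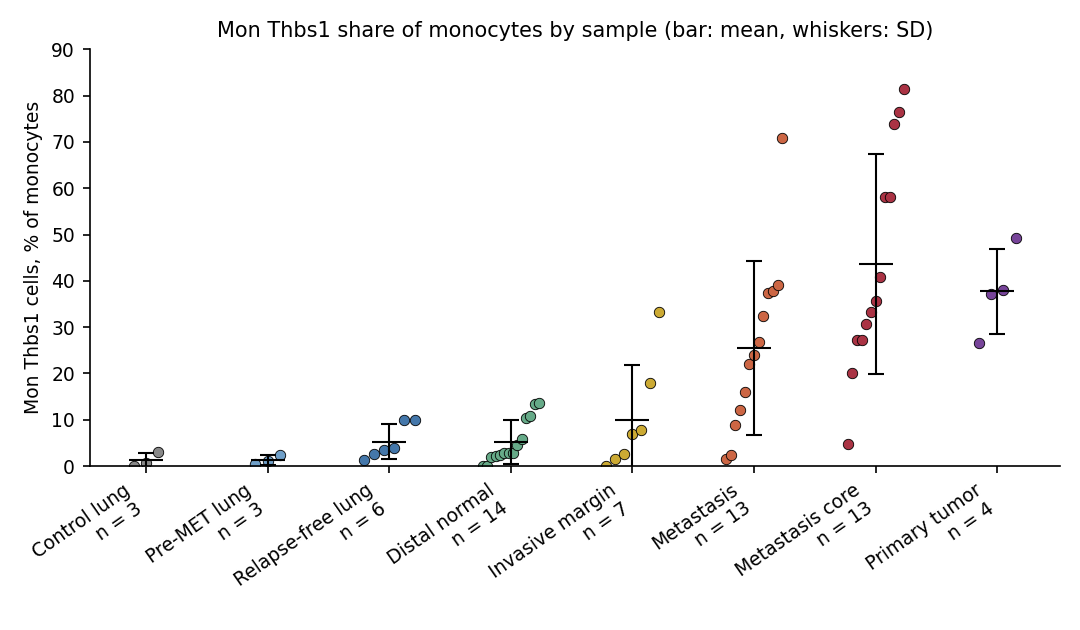
Mon Thbs1 cells as a percentage of each sample's monocytes (linear axis), with 1 point per mouse and tissue and a line at each tissue's mean. Metastasis sections (mean 25.5%), cores (43.7%) and primary tumors (37.8%) reached higher shares than distal normal (5.28%) and relapse-free lung (5.24%), with overlap at the low end.

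The comparison of cores with primary tumors sets Mon Thbs1 cells of metastases beside those of primary tumors of the same carcinoma line, from other mice (0 mice gave both). In the cores Mon Thbs1 cells held more of the chemokine transcripts Ccl2 and Ccl4, and less of Ifitm2 and of Gsr. By edgeR's quasi-likelihood test, 29 of 2345 genes tested (1.24%) passed an adjusted p of 0.05, 16 higher in cores (0.682%) and 13 lower (0.554%). The groups did not overlap for 43 genes (1.83% of those tested).

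Among the chemokines, 2 of 12 tested members rose and all 12 had fitted changes above 0 (9 of 12 with the batch as a term and 11 of 12 with a minimum of 20 cells), with a median log2 change of 1.35 against -0.04 over all genes tested. Ccl2 rose by 2.33 on the log2 scale (SE 0.44, edgeR adjusted p = 0.0112) between the levels given above. Ccl4, the chemokine macrophage inflammatory protein 1β (chr11:83662584-83664683, plus strand), stood at 0, 235, 338 and 469 CPM in primary tumors and at 741, 1358 and 1919 CPM (lowest, median, highest) in cores. The groups did not overlap, and Ccl4 rose by 2.26 (SE 0.57, edgeR adjusted p = 0.0433).

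The other Ccr2 ligands did not pass. Ccl12 had a log2 change of 1.88 (edgeR adjusted p = 0.173; 0.22 with the batch as a term) and Ccl7 of 1.31 (-0.87 with the batch as a term), and Ccl3, macrophage inflammatory protein 1α, of 0.99 (adjusted p = 0.258). Spp1 stood at 266, 282, 657 and 1169 CPM in primary tumors and at 591, 1934 and 4519 CPM (lowest, median, highest) in cores, a log2 change of 1.79 (edgeR adjusted p = 0.0615). Its change was 0.84 with the batch as a term, and 9 of 22 alternative fits called Spp1. Cxcl10 had a log2 change of 1.10 (adjusted p = 0.431), Cxcl16 of 0.58 and Thbs1 of -0.57 (edgeR adjusted p = 0.635).

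Genes lower in the cores came from several families. Ifitm2, an interferon-induced membrane protein that restricts virus entry (chr7:140954837-140955987, minus strand), stood at 4232 to 5603 CPM in the 4 primary tumors and 741 to 2993 CPM in the 8 cores, with no overlap, and fell by 1.47 on the log2 scale (SE 0.31, edgeR adjusted p = 0.0134). Gsr, glutathione reductase, stood at 305 to 663 CPM in primary tumors and 0 to 297 CPM in cores and fell by 1.72 (edgeR adjusted p = 0.0433). Tmsb10, an actin-sequestering thymosin, fell by 1.38 (edgeR adjusted p = 0.0185). Gsr was the one called member of 16 classical monocyte genes, and no member of the type I interferon (0 of 55 tested), glycolysis (0 of 13), hypoxia (0 of 11) or MHC class II lists (0 of 6) was called.

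S100a8 rose in cores by 3.41 (SE 0.80, edgeR adjusted p = 0.0254), from 10.2 to 57.2 CPM in primary tumors to a median of 145 CPM in cores, whose values overlapped. Its fitted change turned to -6.17 with the batch as a term (edgeR adjusted p = 0.525). S100a8 is a neutrophil gene, and in cores a smaller share of Mon Thbs1 cells than of the few B cells held it, as given above. AA467197 (Nmes1), a mitochondrial protein induced in activated myeloid cells, rose by 3.72 (edgeR adjusted p = 0.0134), from 0 to 55.5 CPM to 61.2 to 1476 CPM, with no overlap. The remaining genes with the largest changes were Myl6, a myosin light chain (2.49), Ost4, an oligosaccharyltransferase subunit (1.78), the small RNA genes Mir692-2 (2.41) and Gm22751 (2.33), and on the lower side Scand1 (-2.20), Selenow (-1.97) and the gene models Gm9733, Gm42418 and Gm26917.

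These calls rested on few tumors and could not be separated from the sequencing batch, the sorting gate or the dissociation. Cores were sorted as photoactivated cells and tumors as CD45-positive cells. The study dissociated lungs and tumors with different programs. A fit with the batch as a term sets the tumor of mouse 8 against the core of mouse 36, which alone shared a batch. Its fitted changes are those of single samples, not of the groups. With the batch as a term no gene was called; the fitted log2 changes of Ccl2 and Ccl4 were then 2.95 and 3.10 (edgeR adjusted p = 0.412 and 0.475), and those of AA467197, Myl6, Ost4, Mir692-2, Gm22751 and Selenow were 0.58, 0.99, 0.90, 0.27, 0.22 and -0.70. Among the other genes lower in cores, Ifitm2 had then -0.82, Tmsb10 -1.06 and Scand1 -1.24, while Gsr (-1.53) and Gm9733 (-1.97) moved less. The count of called genes was 0, 1 and 16 without the primary tumors of mice 10, 38 and 9 and 98 without the core of mouse 36. With a minimum of 5 cells Ccl4, Ifitm2, Gsr, Tmsb10 and Scand1 were not called (edgeR adjusted p = 0.0847, 0.0721, 0.185, 0.211 and 0.0905). Ccl2, AA467197, Myl6, Ost4 and Selenow stayed called there.

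Compared with the primary tumors, whole metastasis sections gave fewer calls. Sections and tumors shared a sorting gate but were dissociated with different programs. By edgeR, 7 of 2767 genes tested (0.253%) were called, 4 higher (0.145%) and 3 lower (0.108%), and the groups did not overlap for 0.325% of the genes. All 12 chemokines tested had fitted changes above 0 (9 of 12 with the batch as a term) with a median of 1.38 (all genes -0.05), but 0 were called; Ccl4 had a log2 change of 2.01 (edgeR adjusted p = 0.185) and Ccl2 of 1.27 (adjusted p = 0.507).

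The genes called higher in metastasis sections included both calprotectin subunits. S100a9 held 2 UMIs over all 4 primary tumors and 18.9, 129 and 1774 CPM (lowest, median, highest) in the 10 metastasis sections, 61.6 times the tumor level with a counting interval of 16.6 to 516 (edgeR adjusted p = 0.0165). S100a8 rose by 3.25 on the log2 scale (SE 0.69, edgeR adjusted p = 0.0286). Both belong to the neutrophil list, of which 4 members were tested, and the other members tested had fitted changes below 0. The 9 neutrophil markers other than S100a8 and S100a9 summed to 173 to 282 CPM in primary tumors and to 0 to 607 CPM in metastasis sections, and S100a8 lay at or below the B cell share in metastases. Phlda1, a pleckstrin-homology-like protein, rose by 3.74, and the ferritin light chain pseudogene Gm15590, whose reads may belong to Ftl1, by 2.26. Klf7, a zinc finger transcription factor, fell by 2.53 (SE 0.55, edgeR adjusted p = 0.0326): it stood at 92.2 to 284 CPM in the 4 primary tumors and at 0 to 61.2 CPM in the 10 metastasis sections, with no overlap. With the batch as a term, which sets the tumor of mouse 8 against the sections of mice 36 and 37, no gene was called. The fitted log2 change of Klf7 was then -2.31, that of S100a9 2.81 in place of 6.31 and that of S100a8 1.97 (edgeR adjusted p = 0.763, 0.865 and 0.851). The tumor of mouse 8 held all S100a9 UMIs of the primary tumors. The count was 1 without the primary tumor of mouse 10 or 38, 11 without that of mouse 8 or the section of mouse 26, and 4 and 3 without the sections of mice 28 and 32.

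Mon Thbs1 cells were scarce in lung without a visible metastasis, and 2 samples reached 10 cells, distal normal lung of mouse 36 and relapse-free lung of mouse 35. Against these 2 samples, the 10 metastasis sections held more Spp1, more of 6 of 13 chemokines tested and more of 4 of 13 glycolysis genes, 3 of 11 hypoxia genes, 3 of 6 class II genes and 6 of 55 type I interferon genes. By edgeR, 159 of 3051 genes tested (5.21%) were called, 103 higher (3.38%) and 56 lower (1.84%), and the groups did not overlap for 9.6% of the genes. With the sequencing batch as a term 38 genes were called, 38 higher and 0 lower, so that every lower call was lost. That fit rests on the sections of mice 36 and 37, which shared batch SB128 with both lung samples. Within SB128 alone (2 lung samples and 4 sections, chosen after seeing the data) 66 genes were called, 54 higher and 12 lower. With DESeq2's size factors in edgeR the split was 101 higher and 123 lower, with a median log2 change of all genes of -0.18 in place of 0.03. Thbs1 itself had a log2 change of 0.05 (edgeR adjusted p = 0.982).

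Among secreted factors, 6 of 13 chemokines tested rose, with a median log2 change of 2.66 against 0.03 over all genes. Spp1 (chr5:104435118-104441050, plus strand) held no UMI in either lung sample and 404, 749 and 2543 CPM (lowest, median, highest) in the metastasis sections, at least 55.0-fold higher against a floor of 3 counts over both lung samples, or 17.1 CPM (edgeR adjusted p = 3.54e-05). Here and below, "at least" sets the unweighted mean CPM of the sections over that floor. It limits the lung side only, and shallow sections weigh as much as deep ones. Where the lung held a few UMIs, "times as high" compares UMIs pooled over each group. Ccl2 held 1 UMI in the lung samples, and the metastasis level was 194 times as high with a counting interval of 34.7 to 7655 (edgeR adjusted p = 0.000991). That ratio rests on these lung samples: with a minimum of 5 cells, which takes in 9 lung samples, the log2 change of Ccl2 was 4.86 in place of 6.93. Over all 50 distal cells Ccl2 held 29 UMIs, or 164 CPM, of which the distal sample tested here held 1. Ccl7 and Ccl12, the other Ccr2 ligands, held no UMI in the lung samples and were at least 20.3-fold and 22.7-fold higher by their mean CPM (Ccl12 at least 13.4-fold without the section of mouse 25). Pooled over the sections they held 198 and 147 of 802002 UMIs, a lower level than the means of 348 and 388 CPM. Ccl4 stood at 24.3 and 53.7 CPM in the lung samples and at 377 to 3274 CPM in metastasis sections and rose by 4.74 (SE 0.85, edgeR adjusted p = 0.000991), and Cxcl16 rose by 3.37 (adjusted p = 0.0472). The call of Cxcl16 was lost in 12 of 20 alternative fits. Cxcl10 did not pass, with a log2 change of 1.68 (adjusted p = 0.194) and 827 and 0 CPM in the lung samples. With the batch as a term 3 of the 6 chemokines stayed called, Ccl2, Ccl3 and Ccl4, and Ccl7, Ccl12 and Cxcl16 did not, with fitted log2 changes of 6.71, 6.56 and 3.61 (edgeR adjusted p = 0.141, 0.108 and 0.138).

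Glycolysis turns glucose into lactate, and its enzymes are induced in low oxygen through hypoxia-inducible factor, which binds a short core sequence, ACGTG. Of the glycolysis list, 4 of 13 tested members rose (median log2 change 2.47), and of the hypoxia list 3 of 11 (median 2.10, or 1.74 with genes at 0 in the lung set to their bound). Ldha, the lactate dehydrogenase subunit that makes lactate, stood at 158 and 365 CPM in the lung samples, at 1011, 1678 and 2539 CPM (lowest, median, highest) in metastasis sections and at 1099 to 2249 CPM in primary tumors. The lung samples lay below every metastasis section and every tumor, and Ldha rose in metastasis sections by 2.67 (SE 0.61, edgeR adjusted p = 0.00675). Aldoa, fructose-bisphosphate aldolase, stood at 24.3 and 279 CPM against 884 to 1811 CPM and rose by 3.02 (adjusted p = 0.00657), Tpi1, triosephosphate isomerase, rose by 2.26, and Slc2a1, the glucose transporter Glut1, was 32.1 times as high (counting interval 5.68 to 1277). With the batch as a term Tpi1 and Slc2a1 were not called, with fitted log2 changes of 1.52 and 4.51 (edgeR adjusted p = 0.328 and 0.109), and Aldoa and Ldha were.

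Of the hypoxia genes, Bnip3, a mitochondrial protein of mitophagy, held 1 UMI in the lung samples and was 69.5 times as high in metastasis sections (counting interval 12.4 to 2753, edgeR adjusted p = 0.00319). Hilpda, a lipid droplet protein, held none and was at least 21.4-fold higher. Mif, macrophage migration inhibitory factor, stood at 24.3 and 32.2 CPM against 205 to 979 CPM and rose by 3.86 (edgeR adjusted p = 0.00525). Because Ldha rose with these enzymes, its promoter is shown, from 250 bases before to 50 after the start site in RefSeq (GRCm38.p6, chr7:46845554-46845853, plus strand, 1 of 2 windows of the gene), with matches to ACGTG on either strand in capitals. Of the windows of a gene, the one with the most motif matches was taken.
Ldha: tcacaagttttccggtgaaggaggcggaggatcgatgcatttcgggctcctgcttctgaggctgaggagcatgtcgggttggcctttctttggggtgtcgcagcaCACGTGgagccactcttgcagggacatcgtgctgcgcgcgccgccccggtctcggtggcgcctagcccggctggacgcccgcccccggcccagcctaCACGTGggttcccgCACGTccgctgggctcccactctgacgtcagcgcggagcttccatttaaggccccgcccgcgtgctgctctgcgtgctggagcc
The window holds 5 matches over both strands, since each CACGTG counts on both. Of all 32851 RefSeq promoter windows, which were not picked by their matches, 19.6% hold at least 1.

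Type I interferons act through an interferon-stimulated response element, here searched on both strands as GAAA, any 2 bases and GAAA again. Of this list, 6 of 55 tested members rose, with a median log2 change of 0.91. Ifit2, which binds foreign RNA, held no UMI in the lung samples and 30.6, 269 and 1978 CPM (lowest, median, highest) in metastasis sections, at least 26.5-fold higher (16.6-fold without the section of mouse 30). Ifit3 stood at 0 and 129 CPM in the lung samples and 145 to 2021 CPM in metastasis sections, without overlap, and rose by 3.39 (edgeR adjusted p = 0.0233). Ly6a, the surface antigen Sca-1, rose by 4.23, and Herc6, a ubiquitin-like ligase, was 23.6 times as high. Rsad2, the antiviral enzyme viperin, had a log2 change of 1.45 without a call, and of the interferon-gamma list 1 of 13 tested members rose, Socs1, a cytokine signaling inhibitor at 0 in the lung samples (at least 6.58-fold higher). The type I interferon genes together summed to 28206 and 17220 CPM in the distal and relapse-free samples, within the 15008 to 66593 CPM of the metastasis sections. With the batch as a term 3 of the 6 calls remained, and Ifit3 and Herc6 were not called, with fitted log2 changes of 3.31 and 3.83 (edgeR adjusted p = 0.0871 and 0.261).

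The promoters of Ifit3, which was called, and of Cxcl10, a marker that was not, are shown with these elements in capitals. For Cxcl10 the capitals also mark matches to the NF-kB motif. Both come from RefSeq (GRCm38.p6): Ifit3 at chr19:34583279-34583578 (plus strand) and Cxcl10 at chr5:92348840-92349139 (minus strand).
Ifit3: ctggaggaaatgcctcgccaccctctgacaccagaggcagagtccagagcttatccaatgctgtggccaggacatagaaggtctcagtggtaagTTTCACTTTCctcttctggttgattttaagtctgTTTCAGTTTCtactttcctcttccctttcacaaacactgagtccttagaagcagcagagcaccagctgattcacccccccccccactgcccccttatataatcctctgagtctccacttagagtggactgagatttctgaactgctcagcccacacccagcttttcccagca
Cxcl10: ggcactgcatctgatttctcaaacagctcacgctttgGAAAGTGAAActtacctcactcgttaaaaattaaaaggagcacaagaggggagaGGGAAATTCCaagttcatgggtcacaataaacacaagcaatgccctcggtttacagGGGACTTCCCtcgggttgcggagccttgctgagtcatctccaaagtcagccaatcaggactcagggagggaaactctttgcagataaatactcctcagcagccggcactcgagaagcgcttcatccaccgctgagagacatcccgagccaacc
Ifit3 holds 2 interferon elements, and Cxcl10 holds 1 and 2 NF-kB matches. Over all RefSeq promoter windows, 3.44% hold the interferon element and 4.51% the NF-kB motif.

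Some class II and macrophage genes were also called higher. Of the class II list, 3 of 6 tested members rose (median log2 change 3.33). H2-Ab1 stood at 60.8 and 258 CPM in the lung samples and at 195, 2562 and 11349 CPM (lowest, median, highest) in metastasis sections with the lowest section below the distal lung sample, and rose by 4.26 (edgeR adjusted p = 0.00244). H2-Eb1 rose by 4.66, and H2-DMb1, which helps load peptide, was 15.7 times as high. Of the macrophage maturation genes 5 of 15 rose (median 2.23): the complement chains C1qb (73.2 times as high, counting interval 13.1 to 2900, or 40.6 times without the section of mouse 31) and C1qc (at least 9.57-fold), the lysosomal protease Ctsd (30.5 times as high, counting interval 10.4 to 149, edgeR adjusted p = 0.00201), Ms4a7 (at least 9.27-fold) and Cd9. The ferritin chains Fth1 and Ftl1, which store iron, rose by 1.88 (edgeR adjusted p = 0.0064) and 1.40 (adjusted p = 0.0291), and Arg1, arginase 1, at 0 in the lung samples, was at least 8.48-fold higher. Adam8, a surface metalloprotease, and Sdc4, a heparan sulfate proteoglycan, were with Spp1 the 3 of 15 matrix and vascular genes that rose. With the batch as a term H2-Ab1, Ctsd, Cd9, Fth1, Arg1, Adam8 and Sdc4 stayed called, and H2-Eb1, H2-DMb1, C1qb, C1qc, Ms4a7 and Ftl1 did not (edgeR adjusted p = 0.0518, 0.0904, 0.144, 0.132, 0.221 and 0.307), with fitted log2 changes of 4.55, 3.75, 4.82, 6.92, 5.74 and 0.91.

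The 56 genes called lower in metastasis sections, none of which stayed called with the batch as a term, included 2 genes of the circulating monocyte. Chil3 stood at 2203 and 5732 CPM in the lung samples and at 0, 539 and 2982 CPM (lowest, median, highest) in metastasis sections, with some overlap, and fell by 2.18 (edgeR adjusted p = 0.0133; with the batch as a term -0.88, adjusted p = 0.631). Mgst1, a microsomal glutathione transferase, stood at 901 and 1021 CPM against 0 to 434 CPM, without overlap, and fell by 2.06 (edgeR adjusted p = 0.0186; with the batch as a term -1.80, adjusted p = 0.261). These were the 2 called of 16 classical monocyte genes, whose median log2 change was -0.69, and 0 of 8 patrolling monocyte genes were called. Among the other falls were those of Poglut1 (-5.50; -4.71 with the batch as a term), a protein O-glucosyltransferase, Itpr2 (-4.58; -5.13), an inositol trisphosphate receptor, Slc25a36 (-4.35; -2.54), Cds1 (-4.26; -4.93) and Lrrk2 (-3.51; -2.62).

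**Figure D3:**
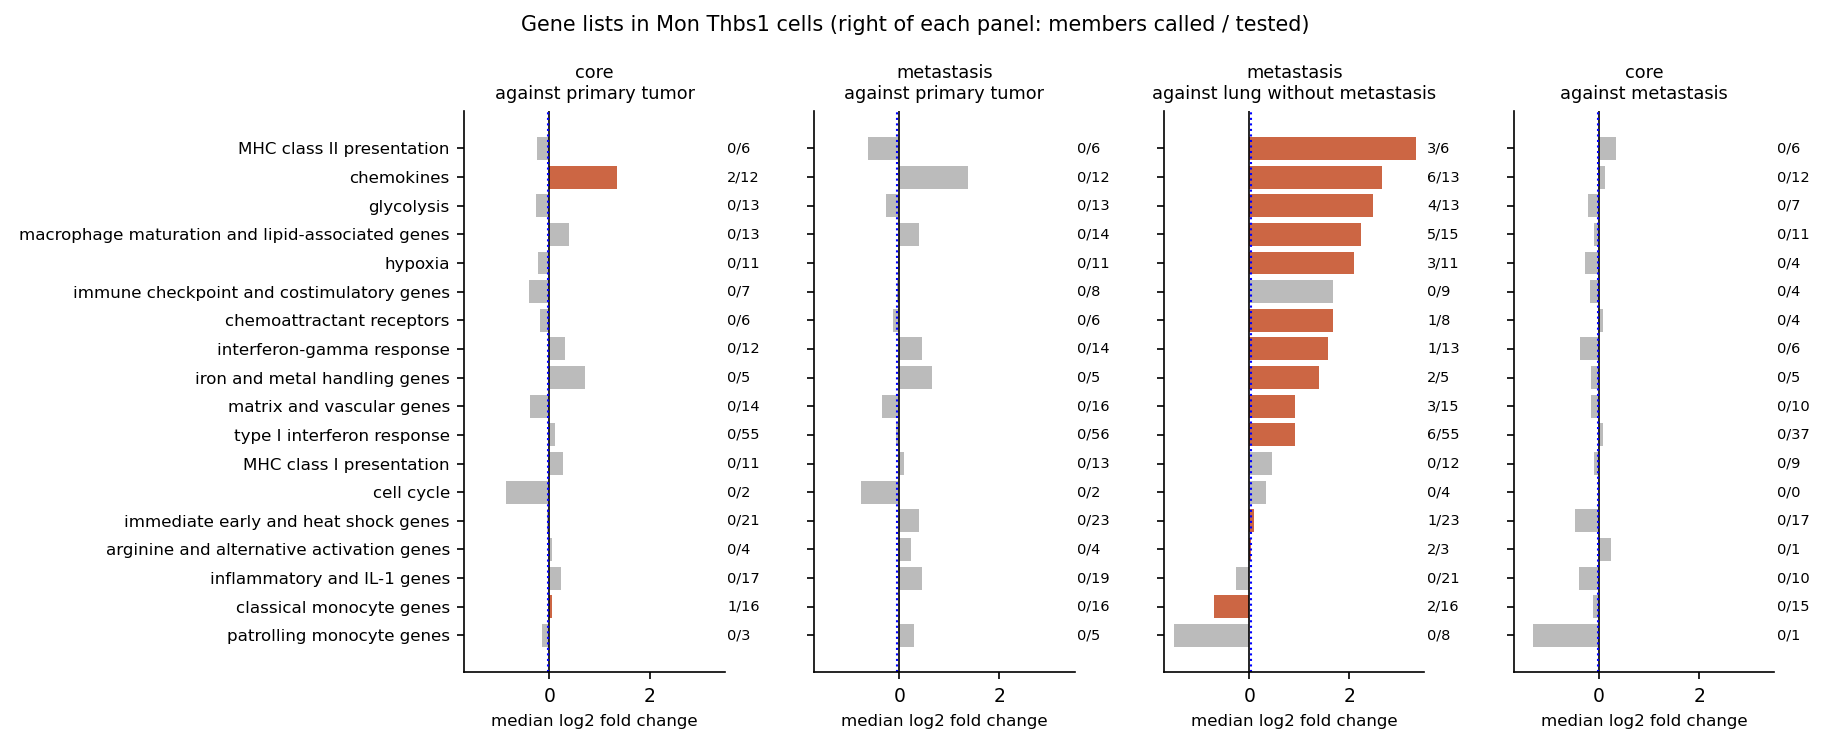
Median log2 fold change of each gene list in Mon Thbs1 cells by comparison, with the numbers of called and tested members at the right. Bars are colored where at least 1 member was called and grey where none was, and the dotted line is the median of all genes tested, with the chemokine list at 1.35 for cores and 1.38 for metastasis sections against primary tumors, and at 2.66 for metastasis sections against lung.

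Both lung samples were small, from 1 batch (SB128), and deep, with medians of 7659 and 7408 UMIs per cell, and the balance of higher and lower calls rested on having both. Without the relapse-free sample 62 genes were called (24 higher, 38 lower), and without the distal sample 192 (73 higher, 119 lower), where the lone lung sample is assumed to vary like the others. The split also turned with no filter on low counts (66 higher, 197 lower). With a minimum of 5 cells, which raised the lung samples from 2 to 9 and left 433 genes, 54 genes were called (38 higher, 16 lower): Spp1 (log2 change 7.21, edgeR adjusted p = 2.21e-08), Ccl2 (4.86, 0.000292), Aldoa (2.19), Ldha (1.66, 0.0047), Tpi1 (1.97), Ly6a (3.79), H2-Eb1 (2.45) and Ctsd (2.35) stayed called, Cxcl10 was called (3.03, 0.00282), and H2-Ab1 (1.78 in place of 4.26, 0.0771) and Chil3 (-1.47 in place of -2.18, 0.0651) were not.

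Cores and metastasis sections were compared to ask whether Mon Thbs1 cells of the photoactivated center differ from those of the whole section. Of 905 genes tested by edgeR, 0 were called (0%), with 51 at an unadjusted p below 0.05, and of 17399 genes tested by DESeq2 without that filter 0 were called, with 311 at an unadjusted p below 0.05. The genes of the smallest p were Dbi (log2 change 0.95), Aldh9a1 (1.49), Egr1 (-1.16), Spp1 (1.16) and Dusp1 (-0.83), all at an edgeR adjusted p of 0.826, and Ccl2 had a log2 change of 0.99 at the same adjusted p. Egr1 and Dusp1 are immediate early genes, induced within minutes by stress or handling. Egr1 stood at 0, 201 and 432 CPM (lowest, median, highest) in cores and at 184 to 792 CPM in metastasis sections, and 2 of 17 tested genes of this list had fitted changes above 0, with a median of -0.47 (all genes -0.01). Spp1 stood at 591 to 4519 CPM in cores and 404 to 2543 CPM in sections, and the groups overlapped for every gene tested. Pairing core and section of the same mouse, as a replicate block in the 6 mice with both, gave 0 calls among 552 genes.

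The last comparison asks whether the difference between metastasis and primary tumor was the same in Mon Thbs1 as in Mon Fn1 monocytes of the same samples. By edgeR, 1 of 3341 genes (0.0299%) was called, Spp1, with a difference of the 2 log2 changes of 2.96 (SE 0.55, edgeR adjusted p = 0.00475). In Mon Thbs1 cells Spp1 averaged 593 ± 424 CPM in primary tumors (SD, n = 4) and 942 ± 638 CPM in metastasis sections (SD, n = 10). Its log2 change between these tissues in Mon Thbs1 cells was 0.55 and was not called, in the main fit or in any of 24 alternative fits. In Mon Fn1 cells Spp1 averaged 277 CPM in primary tumors and 32.4 CPM in metastasis sections of the same mice. Mon Fn1 cells of primary tumors held 42.9, 237, 392 and 434 CPM, above most metastasis sections. These tumor sums came from 13 to 15 Mon Fn1 cells and 6 to 39 Spp1 UMIs each. Spp1 was also near the B cell share in primary tumors, where 17.3% of B cells held it (median depth 1649.5 UMIs), and the part of stray RNA in this difference was not tested. The next genes did not pass: Ccl12 (difference 5.70, edgeR adjusted p = 0.0798), Cxcl10 (2.99), Rsad2 (2.61), Ccl7 (4.89) and Ifit1 (2.94), the last 4 at an adjusted p of 0.0818. Without the term that pairs both subsets of a sample (no replicate block), Spp1 had a difference of 2.91 (edgeR adjusted p = 0.132) and 0 genes were called, and with cores in place of metastasis sections 1.58 (adjusted p = 0.996) and 0 genes.

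**Figure D4:**
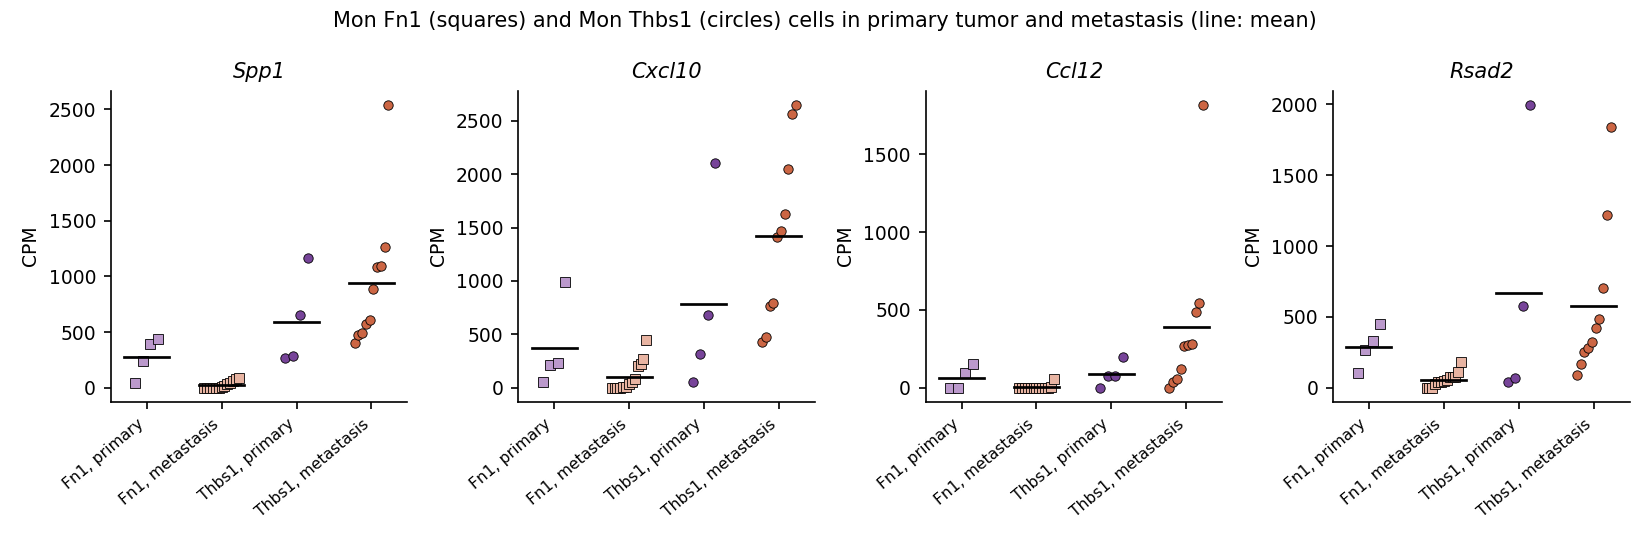
Levels (CPM, linear axes) of 4 genes in Mon Fn1 (squares) and Mon Thbs1 cells (circles) of primary tumors and metastasis sections, with 1 point per sample of at least 10 cells and a line at the mean. Spp1 lay higher in primary tumors than in most metastasis sections in Mon Fn1 cells. In Mon Thbs1 cells these tissues overlapped, and the highest section reached 2543 CPM.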

How the data were processed

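Single CD31-negative immune cells from 27 mice were sorted into 148 plates and profiled by a 3′ method with UMIs. Per the labels, the authors demultiplexed with bcl2fastq 2.15.0.4 and used the mm10 genome. By the study's methods, they mapped with HISAT, left out multi-mapping reads, discarded cells under 500 UMIs and named cells from metacell clusters. The deposited values are raw UMI counts per gene and well, with no normalization. The deposited cell table gives each well's subpopulation, mouse, tissue and sequencing batch, and 24020 of 56832 wells had a name, of which 595 were left out as no immune subpopulation.

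Counts of Mon_Thbs1 cells were summed per mouse and tissue (at least 10 cells; 52542 gene rows without spike-ins). Sums were tested with edgeR 4.0.16 (filterByExpr, TMM, quasi-likelihood F test; R 4.3.3) between the groups compared only, with Benjamini-Hochberg adjustment over all genes tested and a threshold of 0.05. The difference between subsets was an interaction with sample as a block. Shares were computed in samples with at least 5 monocytes and tested by two-sided permutation of samples in scipy 1.17.1. The test was exact where at most 100000 splits were possible and otherwise used 100000 resamples. DESeq2 1.42.0, DESeq2 size factors, other filters, cell minimums, thinning to 500 UMIs, batch terms and leaving out samples were alternatives. Levels in single samples are CPM, and fold changes are edgeR's, with its default prior count.

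Named genes were the 17 the study names for these cells, the 8 largest rises and falls among called genes without overlap, up to 4 called members of each list (otherwise the 2 highest), the 5 smallest p where nothing was called and the 10 most abundant genes. Other genes in the text were chosen after their values were seen. The members and lists were chosen with earlier results of these data known, and the study chose its 17 genes on these samples.

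Each tissue of a mouse is a sample of its own, and replicate numbers are mouse numbers, so samples of a number come from the same animal. Residuals of core and section correlated by 0.0826 to 0.47 in the 6 mice with both (mean of other pairs -0.0544). Simulated data with 200 changed genes gave back 67% of log2 changes of 2 and 1% of log2 changes of 1 for core against primary tumor, 70% and 4.5% for metastasis against primary tumor, 85.5% and 38.5% for core against metastasis, 14.5% and 0% for metastasis against lung and 32.5% and 0% for the interaction. Intervals and floors cover counting error only.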

Additional observations from a re-analysis of the deposited data

Results flagged for a closer look

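Single samples stood apart from their group in 40 of 222 groups of named genes and tissues by Dixon's test. Its chance rate of about 1 of 20 groups holds for normally distributed values, and these levels are skewed. All were the highest of their group, and UMIs of few cells are uneven between samples. Some flagged levels rest on very few UMIs, such as Itpr2 at 30.6 CPM in a sum of 32691 UMIs and Slc25a36 at 148 CPM in a sum of 13546.

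The flagged genes in metastases came from several families, class II and chemokine genes among them. H2-Ab1 stood at 11349 CPM in the section and 14276 CPM in the core of mouse 26, and the section also held the highest H2-Eb1 (3304 CPM), Mif (979 CPM) and Itpr2 (30.6 CPM), while its core held the highest C1qb (1418 CPM) and Klf7 (226 CPM). In metastasis sections, Ccl4 reached 3274 CPM, Ifit2 1978 CPM, Ifit1bl1 1160 CPM and Myl6 1091 CPM in mouse 30. Ccl12 reached 1819 CPM, Herc6 1314 CPM and C3ar1 909 CPM in mouse 25. Spp1 (2543 CPM), Ftl1 (27160.1 CPM), Egr2 (541 CPM), Mir692-2 (2056 CPM) and Gm22751 (1190.3 CPM) were highest in mouse 23.

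The remaining sections were those of mouse 36 (Arg1, 558 CPM), mouse 37 (Chil3, 2982 CPM), mouse 33 (Eno1, 2434 CPM) and mouse 28 (Cds1, 29.4 CPM). Among cores, mouse 30 held 2073 CPM of Arg1, arginase 1, against at most 212 CPM in the others, and mouse 17 held 922 CPM of Ccl12. Mouse 25 held 1034 CPM of Ifit1bl1, 1624 CPM of H2-DMb1 and 148 CPM of Slc25a36, mouse 36 held 544 CPM of Adam8, 398 CPM of Socs1 and 20.9 CPM of Poglut1, and Lrrk2 (19.3 CPM), Usp32 (169.5 CPM) and Slc22a15 (9.42 CPM) were highest in mice 23, 24 and 28.

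Among the 4 primary tumors, Ccl2 reached 809.6 CPM in mouse 38 and Egr1 519 CPM in mouse 9. Mouse 8 held the highest Egr2 (267 CPM), H2-Eb1 (1398 CPM), Tpi1 (1252 CPM) and S100a9 (12.7 CPM, with the other tumors at 0). The primary tumor of mouse 8 was the one sequenced in batch SB128.

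The change of Spp1 from primary tumor to metastasis differed between Mon Thbs1 and Mon Fn1 cells by 2.96 on the log2 scale, tested as an interaction. In Mon Thbs1 cells alone Spp1 was not called between these tissues. The invasive margin entered no test of levels, since 1 sample reached 10 cells. Its 31 Mon Thbs1 cells together held Ccl2 (539.9 CPM), Cxcl10 (1651 CPM) and Spp1 (758 CPM). Mouse 17 gave 13 of these cells with 62106 UMIs, most of the UMIs of the margin. The 4 Mon Thbs1 cells of Normal lungs held no UMI of any of these genes among 7781. That allows up to 386 CPM by counting error alone. Mon Thbs1 cells of distal normal lung did hold Ccl2 and Cxcl10, as given above.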

How the results depend on the processing

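Of the values for single genes and alternatives, 1630 kept their direction and side of the threshold, 269 lost a call, 41 gained one, and 2 reversed: with the batch as a term, core against primary tumor, Ccl7 fitted at -0.87 and S100a8 at -6.17. Of 58 values without a call, 193 of 1421 alternative fits had the other sign, and 0 of these were called. Cxcl10 relative to Mon Ace moved to 2.11 with a minimum of 5 cells.

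For core against primary tumor (29 calls) the count was 80 with DESeq2, 51 without a filter, 44 with a filter of 10 UMIs, 19 with a minimum of 5 cells, 71 with a minimum of 20, 14 in cells of at least 1000 UMIs, 26 (of 359 genes tested) with cells thinned to 500 UMIs and 0 with the batch as a term. For metastasis against primary tumor (7) it was 34, 18, 3 with a minimum of 20 cells, 3 at 1000 UMIs, 7 (of 422 genes tested) with thinned cells, 3 in a fit over all tissues and 0 with the batch as a term. For core against metastasis (0) it was 2 without a filter. For metastasis against lung (159) it was 263 without a filter, 54 with a minimum of 5 cells, 66 in batch SB128 (an alternative chosen after seeing the data, as were the within-batch shares, the fit in SB118 and leaving out samples from the shares), 13 (of 374 genes tested) with thinned cells and 38 with the batch as a term, all higher. For the interaction (1) it was 11 with DESeq2, 7 without a filter, 9 with a filter of 10 UMIs, 6 with thinned cells, 0 with cores in place of sections and 0 without the sample term (no replicate block). The cause of these shifts was not tested.

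Leaving out 1 sample gave 0 to 98 calls for core against primary tumor, 1 to 11 for metastasis against primary tumor, 0 to 0 for core against metastasis, 62 to 192 for metastasis against lung and 1 to 9 for the interaction (9 when tumor 8 was left out, numbered by mouse, 5 for tumor 10 or 38 or section 36, 4 for section 26 or 37, and 2 for tumor 9 or section 23). Differences in share ranged over 16.4 to 22.2 points for metastasis against distal lung, 16.4 to 22.2 against relapse-free lung, 15.1 to 21.98 for core against metastasis and 30.5 to 37.5 for core against margin. Core against metastasis was 1.58 points as a share of immune cells (adjusted p = 0.703), 12.0 in cells of at least 1000 UMIs (adjusted p = 0.233) and 17.8 with at least 20 monocytes (adjusted p = 0.0626), all permutation tests; with the replicate block it was 22.6.

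A replicate block could not be fitted for either comparison with primary tumors (0 shared mice) or with lung (1 mouse), nor a minimum of 20 cells for metastasis against lung and the interaction, for which fewer than 2 samples were left in a group. The replicate block changed no call on shares or for core against metastasis; leaving out the sample term ended the Spp1 call of the interaction (adjusted p = 0.132 by edgeR).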

Other observations

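Il1b overlapped between tissues in Mon Thbs1 cells. It stood at 2342 to 4481 CPM in primary tumors, 1868 to 3977 CPM in cores and 1213 to 3679 CPM in metastasis sections, and at 2933 and 4276 CPM in the relapse-free and distal normal samples. Of the inflammatory and IL-1 list, 0 of 17, 19, 10 and 21 tested members were called for core against primary tumor, metastasis against primary tumor, core against metastasis and metastasis against lung, with 12, 15, 1 and 10 fitted above 0. The MHC class I list gave 0 of 11, 13, 9 and 12 in the same order, and the immune checkpoint and costimulatory list 0 of 7, 8, 4 and 9. At most 4 of 19 cell cycle genes passed the filter on low counts in any of these comparisons, and 0 were called.

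Markers of other cells were also found in the sums. Erythroid transcripts reached 1112 CPM in a metastasis section, 974.7 CPM in a core and 35.9 CPM in a primary tumor, alveolar macrophage markers at most 136 CPM, keratins of the carcinoma 38.4 CPM and platelet markers 259 CPM.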
